A study of Mus musculus with 18 samples.

Results

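The proteasome genes of mouse oligodendrocyte progenitor cells (OPCs) were examined here, with Psmb5 described on its own because it has been reported as a target of the transcription factor THAP1. Members were all genes with protein-coding transcripts whose name starts with Psm, a letter from a to g and a digit. The rule found 50 genes among 22305 with protein-coding transcripts, and 92 protein-coding transcripts belonged to them. Of the 50, 45 reached a mean of at least 1 rescaled TPM (explained below) over all libraries and were tested. The 5 that did not were Psma8, Psmb8, Psmb9, Psmb11 and Psme2b. One member, Psmc3ip, carries the name pattern through a partner protein and is not a proteasome subunit. RNA was sequenced in 18 libraries of OPCs derived from primary neural stem cells and grown as clonal lines. Control lines were the 3 clones D7, D3 and E8. The Thap1 null genotype was carried by 3 others, named 3F, D6 and 7F, which the deposited table calls THAP1 knockouts. Each clone was sampled as dividing OPCs (growth medium with PDGF-AA, a mitogen), and after 2 and 4 days in oligodendrocyte differentiation medium with the thyroid hormone T3 (DIV2 and DIV4), which gave 3 libraries in each of 6 groups. Each library stands for 1 clonal line at 1 stage, and the labels do not state how the null clones were made or whether they share a founder.

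The proteasome is the large protease that degrades ubiquitin-tagged proteins in the cytosol and nucleus. Its 20S core is a barrel of alpha rings (Psma genes) and beta rings (Psmb genes), and only the beta subunits encoded by Psmb5, Psmb6 and Psmb7 cut peptides, with chymotrypsin-like, caspase-like and trypsin-like activity respectively. In immune settings these are replaced by Psmb8, Psmb9 and Psmb10, which make the immunoproteasome. A 19S cap unfolds substrates with ATPases (Psmc genes) and recognises and removes ubiquitin with its lid and receptor subunits (most Psmd genes), while Psme genes encode alternative activators and Psmg genes encode chaperones that assemble the core. THAP1 is a zinc-finger protein that binds DNA, and mutations of its gene cause an inherited dystonia.

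The 250 bases before the annotated start of Psmb5 and of its catalytic partner Psmb6 are shown because Psmb5 alone among the catalytic genes was lower in the null clones. The sequences are from RefSeq (build GRCm38.p6), read on the strand of each gene, with capitals on the letters that matched a motif. Psmb5 lies on the minus strand of chr14:54614119-54618022 (ENSMUSG00000022193, GRCm38), and its window is chr14:54617996-54618245. That Ensembl span reaches into the window, because the window precedes the RefSeq start, from which the distances below are counted. For Psmb6, on the plus strand of chromosome 11, the window is chr11:70525107-70525356.
Psmb5: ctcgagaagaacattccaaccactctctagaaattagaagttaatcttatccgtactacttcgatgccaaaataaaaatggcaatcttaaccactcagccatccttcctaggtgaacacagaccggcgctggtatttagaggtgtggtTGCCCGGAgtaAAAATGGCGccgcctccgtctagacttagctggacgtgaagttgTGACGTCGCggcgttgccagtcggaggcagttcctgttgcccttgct
Psmb6: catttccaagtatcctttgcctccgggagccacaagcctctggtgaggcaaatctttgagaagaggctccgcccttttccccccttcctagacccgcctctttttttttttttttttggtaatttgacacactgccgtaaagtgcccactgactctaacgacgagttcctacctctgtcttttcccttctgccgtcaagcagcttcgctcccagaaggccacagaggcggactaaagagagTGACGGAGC
The search covered 3 motifs on both strands: the THAP1 core TNNGGGCA, the antioxidant response element TGACNNNGC bound by Nfe2l1 and Nfe2l2, and the YY1 motif AANATGGCG. In the Psmb5 window the THAP1 core matched on the opposite strand at TGCCCGGA, 102 to 95 bases before the start. The YY1 motif matched at AAAATGGCG, 91 to 83 bases before the start, and the response element at TGACGTCGC, 47 to 39 bases before it, with no overlap between the 3 matches. The Psmb6 window held a response element match, TGACGGAGC, 9 to 1 bases before the start, and neither of the other motifs. Of 42 members with a window, 7 held the THAP1 core (Psmb5, Psmb8, Psmb9, Psmc1, Psmd1, Psmd8 and Psmg4), 5 the response element (Psmb5, Psmb6, Psmc6, Psmd9 and Psmd12) and 1, Psmb5, the YY1 motif. Over the 27025 genes with a window of this length in the table, 13.5% held the THAP1 core, 11.5% the response element and 1.29% the YY1 motif, beside 16.7%, 11.9% and 2.38% of the 42 members. A match describes the letters in the window and not a bound site.

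Thap1 itself was lower in every null library than in any control library. It ranged from 1.94 to 4.41 rescaled TPM in the 9 control libraries and from 0.197 to 0.778 in the 9 null libraries. TPM is a level per transcript length with a fixed total per library, and protein-coding transcripts held only 5.05% to 9.003% of that total in control OPC libraries, where null OPCs reached 19.1% to 28.4% and the 12 differentiated libraries 20.8% to 38.8%. Levels were therefore divided by 1 factor per library (the median ratio over 12320 genes) and are given as rescaled TPM, and the OPC comparison is the one most exposed to this step. Markers also moved with genotype. Summed OPC markers, in rescaled TPM, were 616 to 809 in control and 421 to 535 in null OPCs, 224 to 406 against 159 to 207 at DIV2, and 316 to 413 against 173 to 213 at DIV4, with no overlap at any stage. Gene by gene, 5 of the 6 OPC markers read lower in null clones at each stage and 1 higher. Groups lay apart, null lower, for 1, 2 and 1 of the 6 at OPC, DIV2 and DIV4, beside 1280, 1781 and 1415 of 10409 genes. Limma called 1, 0 and 1 of the 6 lower. Summed oligodendrocyte markers were 41.5 to 392 in control and 178 to 266 in null OPCs, 2443 to 4674 against 1976 to 2477 at DIV2, and 1735 to 10270 against 959 to 1794 at DIV4. At DIV4 6 of 6 oligodendrocyte markers read lower in null clones (median -1.08 log2), none of them called by limma, with 3 at an unadjusted p under 0.05. Markers of microglia and other immune cells summed to at most 0.575, and those of fibroblasts and vessels to at most 1.22. The D3 control OPC library had 48.9 rescaled TPM summed over 6 cell cycle genes, where the other OPC libraries reached up to 448. Summed astrocyte markers at DIV4 ran from 1.66 to 318 in control clones and from 86.2 to 142 in null clones. The part of these marker differences in the results below was not tested. In bulk RNA, fewer cells of a type and less RNA per cell cannot be told apart.

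Psmb5 RNA was lower in the Thap1 null clones at each of the 3 stages, by about the same amount each time. In OPCs the control clones D7, D3 and E8 held 80.1, 87.96 and 40.2 rescaled TPM, against 31.5, 29.1 and 36.7 in 3F, D6 and 7F of the null genotype. At DIV2 the control values were 73.9, 64.8 and 69.2 and the null values 32.3, 34.4 and 28.4. At DIV4 they were 68.9, 56.1 and 68.3 in control and 28.3, 23.2 and 27.03 in null clones. The groups did not overlap at any stage, and the nearest approach was the E8 control OPC library, which stood low among the controls at 40.2. Groups lay apart in this direction at all 3 stages for 1.45% of the 10409 genes tested.

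The fitted change of Psmb5, null minus control on the log2(rescaled TPM + 1) scale, was -1.003 (SE 0.22, adjusted p = 0.00988) in OPCs by limma with Benjamini-Hochberg adjustment over all genes. The same limma fit gave -1.11 (SE 0.22, adjusted p = 0.0109) for DIV2 and -1.26 (SE 0.22, adjusted p = 0.00441) for DIV4. Over the 3 stages, with each clone counted once, limma gave -1.12 (SE 0.12, adjusted p = 0.00611), with the group means lower by 2.18-fold. Psmb5 was the single member called at DIV2, DIV4 and over all stages, where 3.19%, 5.5% and 3.43% of all tested genes were called. The calls depended on single null clones: without 7F they were lost in all 4 comparisons (limma adjusted p of 0.0512 to 0.136), without 3F in OPCs and at DIV2, and without D6 in OPCs, with changes of -1.36 to -0.80 throughout. Being called lower at each of the 3 stages was shared by 0.432% of tested genes. On rescaled TPM neither genotype showed a called change of Psmb5 with differentiation, and the 4 stage changes lay between -0.30 and 0.07 log2. The change from OPC to DIV4 differed between genotypes by -0.26 (SE 0.31, limma adjusted p = 0.680).

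On the deposited TPM, before rescaling, the DIV2 and DIV4 groups also lay apart, with control values of 102, 111 and 103 against null values of 41.3, 41.7 and 43.7 at DIV2, and 64.1, 112 and 139 against 37.7, 34.4 and 37.7 at DIV4. In OPCs the order turned: deposited TPM was 23.2 in D7, 28.3 in D3 and 5.06 in E8, against 42.6 in 3F, 21.03 in D6 and 36.96 in 7F, a change of 1.03 (limma adjusted p = 0.0355). The calls of Psmb5 were lost on that scale, with limma adjusted p = 0.194 at DIV2, 0.0997 at DIV4 and 0.0620 over all stages. In OPCs the call was also lost when only the OPC libraries entered the fit of rescaled TPM (limma adjusted p = 0.174). Between genotypes 2.0% of genes were called on deposited TPM at DIV2, 2.75% at DIV4 and 31.5% over all stages. In OPCs the median of all tested genes moved by 1.49 on that scale and 88.1% of them were called, so relative to that shift Psmb5 changed by -0.46. With libraries scaled to their protein-coding total the OPC change was -0.60 (limma adjusted p = 0.135), or -0.95 relative to a median shift of 0.35. Stage changes of Psmb5 in control clones also depended on scaling. From OPC to DIV2 the change was 0.73 with protein-coding totals (limma adjusted p = 0.0410, median of all genes 0.56). On deposited TPM it was 2.71 (limma adjusted p = 9.2e-06, median 1.99). There the DIV4 change differed between genotypes by -2.45 (limma adjusted p = 0.00212, median -1.63).

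**Figure D1:**
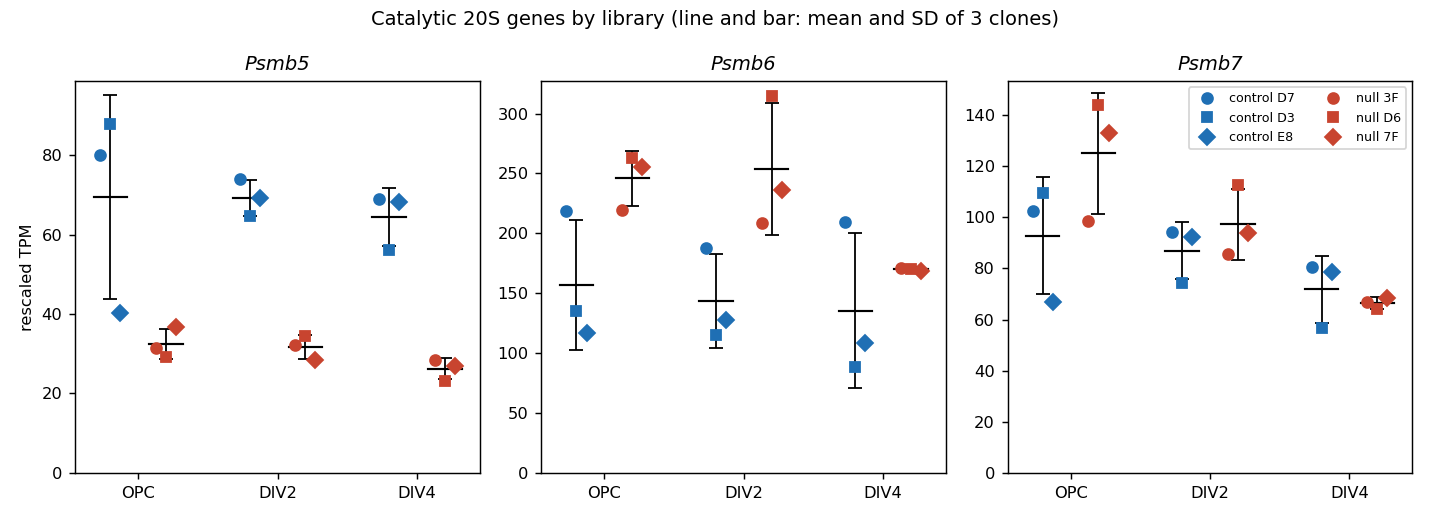
Rescaled TPM (vertical axis) of the 3 catalytic core genes in the 18 libraries, by stage (horizontal axis), with control clones in blue and null clones in red; lines and bars give the mean and SD of 3 clones. Every null value of Psmb5 lies below every control value of its stage, while those of Psmb6 and Psmb7 overlap the controls or lie above them.

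Relative to the mean of the other 13 constitutive 20S genes, Psmb5 was lower in each null library than in any control library. This measure is the log2 of Psmb5 minus the mean log2 of the other 13 within the same library, so any scaling factor cancels. In OPCs it was -0.09, 0.14 and -0.59 in control clones D7, D3 and E8, and -1.62, -2.04 and -1.67 in null clones 3F, D6 and 7F. At DIV2 it was -0.22, -0.11 and -0.31 in control against -1.42, -1.77 and -1.70 in null, and at DIV4 -0.15, 0.19 and 0.01 against -1.12, -1.33 and -1.18. Control clones thus carried Psmb5 near the average of the core, and null clones carried it well under that average. Psmb5 was not the lowest core gene in every null library: in D6 at DIV4, Psma3 held 17.9 rescaled TPM and Psmb5 23.2. The null minus control difference in the relative level of Psmb5 was -1.60 in OPCs, -1.42 at DIV2, -1.23 at DIV4 and -1.41 over all stages. Each two-sided exact permutation p was 0.1, the smallest that 3 against 3 clones can give, so no single such comparison can pass 0.05.

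The same difference was computed for each of the other 13 core genes. It ran from -0.28 (Psmb2) to 0.67 (Psma3) in OPCs, from -0.25 (Psma2) to 0.70 (Psmb6) at DIV2 and from -0.46 (Psma2) to 0.82 (Psma3) at DIV4. Psmb5 is part of the reference of each of these genes but not of its own, so its lower level in null clones shifts their values somewhat upward. The lowest of these values, -0.46, lay well above each value of Psmb5. As a share of the summed TPM of the 3 catalytic genes, Psmb5 made up 21.4% ± 4.46 (SD, n = 3), 23.4% ± 2.43 and 24.6% ± 4.73 in control clones at OPC, DIV2 and DIV4. In null clones that share was 8.11% ± 1.24, 8.42% ± 1.29 and 9.95% ± 0.835. The highest null share, 10.6%, lay below the lowest control share, 17.9%.

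**Figure D2:**
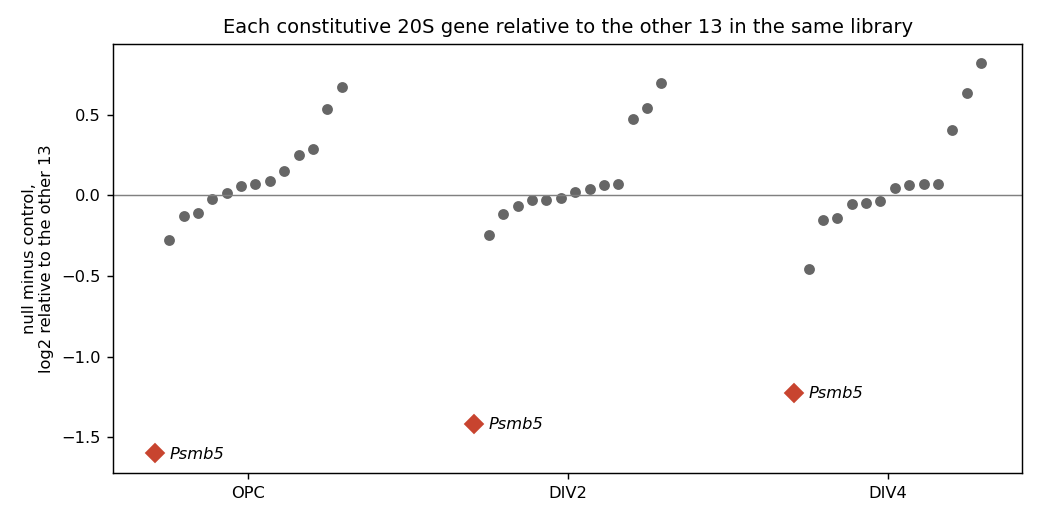
For each of the 14 constitutive 20S genes, the log2 level relative to the other 13 in the same library, null mean minus control mean (vertical axis), at the 3 stages (horizontal axis). Psmb5 (red diamond) lies at -1.60, -1.42 and -1.23, below all 13 other genes, which lie between -0.46 and 0.82.

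The reads of Psmb5 could be shared with its copies. Of the 31-base words in its transcripts, 74.0% also occur in other annotated genes, mostly in the processed pseudogene Gm3375, which was not analysed here. The copies that are in the table, Psmb5-ps and the small RNA gene Mir686, held at most 0.434 deposited TPM in any library. Gm3375 alone shares 61.7% of the words, its level is not known here, and its reads may be counted in Psmb5, so the level of Psmb5 is uncertain by an unknown amount. In all, 13 members share at least 10% of their words with another gene and have uncertain levels in the same way: Psma3, Psma4, Psma5, Psmb3, Psmb5, Psmb6, Psmc1, Psmd2, Psmd11, Psme1, Psme2, Psme2b and Psmg3.

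The other 2 catalytic genes did not follow Psmb5. Psmb6 was 219, 135 and 117 rescaled TPM in control clones D7, D3 and E8 as OPCs and 219.6, 263 and 255 in null clones 3F, D6 and 7F. At DIV2 it was 188, 115 and 127 in control and 209, 315 and 237 in null clones, and at DIV4 209.6, 88.3 and 109 and 171, 171 and 169. Control D7 stood above the other 2 controls at every stage, and the null values were higher than those of D3 and E8 throughout. The fitted changes of 0.69, 0.83 and 0.43 log2 were not called (limma adjusted p = 0.132, 0.158 and 0.427). Without clone D7 the changes of Psmb6 were 0.96 in OPCs, 1.04 at DIV2 and 0.79 at DIV4. D7 was picked after its high values were seen, so these changes are no separate result. Psmb7 was 102, 109 and 66.8 in control and 98.5, 144 and 133 in null OPCs. It was 94.2, 74.4 and 92.4 against 85.7, 113 and 93.7 at DIV2, and 80.4, 56.6 and 78.4 against 67.02, 64.02 and 68.5 at DIV4. Its groups overlapped at every stage and its changes of 0.44, 0.16 and -0.09 were not called (lowest limma adjusted p = 0.165).

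In OPCs most of the other members read higher in null than in control clones, with few of them called. Of 45 tested members, 4 rose and 1, Psmb5, fell, against 5.91% of all tested genes called higher and 5.95% called lower (11.9% in either direction). The median change over the 45 was 0.36 log2, beside 0.04 over all genes, and 37 of 45 were positive. The null and control libraries did not overlap, null higher, for 15 of 45 members, where 13.4% of all genes did so. All 13 other constitutive core genes were positive in OPCs, from 0.20 to 1.06 with a median of 0.52. The E8 control OPC library was the lowest of the 6 OPC libraries over the core, with a geometric mean of 60.2 rescaled TPM over the 13 genes, against 79.6 and 85.2 in D3 and D7 and 96.9 to 120.1 in the null clones. The core median was also positive under the other scalings, at 2.56 on deposited TPM and 0.92 with protein-coding totals, where the median of all genes moved by 1.49 and 0.35. The size of the rise did depend on scaling, with 45 of 45 members called higher on deposited TPM (background 88.1%) and 28 of 45 with protein-coding totals (background 25.2%).

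Psma1, an alpha-ring subunit, held 59.4, 53.7 and 43.4 rescaled TPM in control and 73.1, 93.9 and 92.3 in null OPCs. Its groups did not overlap, and it rose by 0.72 (SE 0.19, adjusted p = 0.0257) in the limma fit. Psmd1, the large scaffold subunit of the 19S base, was 33.4, 24.6 and 32.5 against 39.9, 46.9 and 42.04 and rose by 0.50 (SE 0.15, adjusted p = 0.0369) in the limma fit. Psmd11, a lid subunit, was 12.5, 8.56 and 12.5 against 25.1, 20.01 and 12.9. It rose by 0.71 (SE 0.22, adjusted p = 0.0489) in the limma fit, with the 7F null clone close to the controls. Psmd10, also known as gankyrin and a chaperone of the 19S base, was 4.72, 7.71 and 4.798 against 7.301, 9.37 and 11.2 and rose by 0.62 (SE 0.18, adjusted p = 0.0365) in the limma fit, with D3 above the 3F null value. None of the 4 was called at DIV2 or DIV4, where their changes lay between -0.13 and 0.45. The count of 5 called members rested on single clones. It was 16 without control D7, 7 without control D3, 1 without control E8, 2 without null 3F, 0 without null D6 and 1 without null 7F. The share of all genes called in each of these fits is not given here, so these counts cannot be set against it.

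At DIV2 and DIV4 the members' medians lay nearer to those of all genes than in OPCs, a difference between stages that was called for no member. The members' median change was 0.16 at DIV2 and -0.06 at DIV4, beside -0.01 over all genes at both. Of the 13 other core genes, 12 were positive at DIV2 (median 0.20) and 3 at DIV4 (median -0.11), and none was called at either stage (limma, with 1 gene at an unadjusted p under 0.05 at each). For Psma2, an alpha-ring gene, the sign turned with stage: 0.60 in OPCs, -0.04 at DIV2 and -0.58 at DIV4. Its DIV4 levels were 131, 61.3 and 99.8 in D7, D3 and E8 and 63.3, 65.7 and 57.3 in 3F, D6 and 7F, so the low control D3 overlapped the null clones. The change was not called at DIV4 (limma adjusted p = 0.139). Without control D3, picked after its low value was seen, the change was -0.87, which is no separate result. Over all 3 stages and clone means the 13 core genes had a median of 0.16 and the 17 genes of the 19S cap one of 0.17, with none called.

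**Figure D3:**
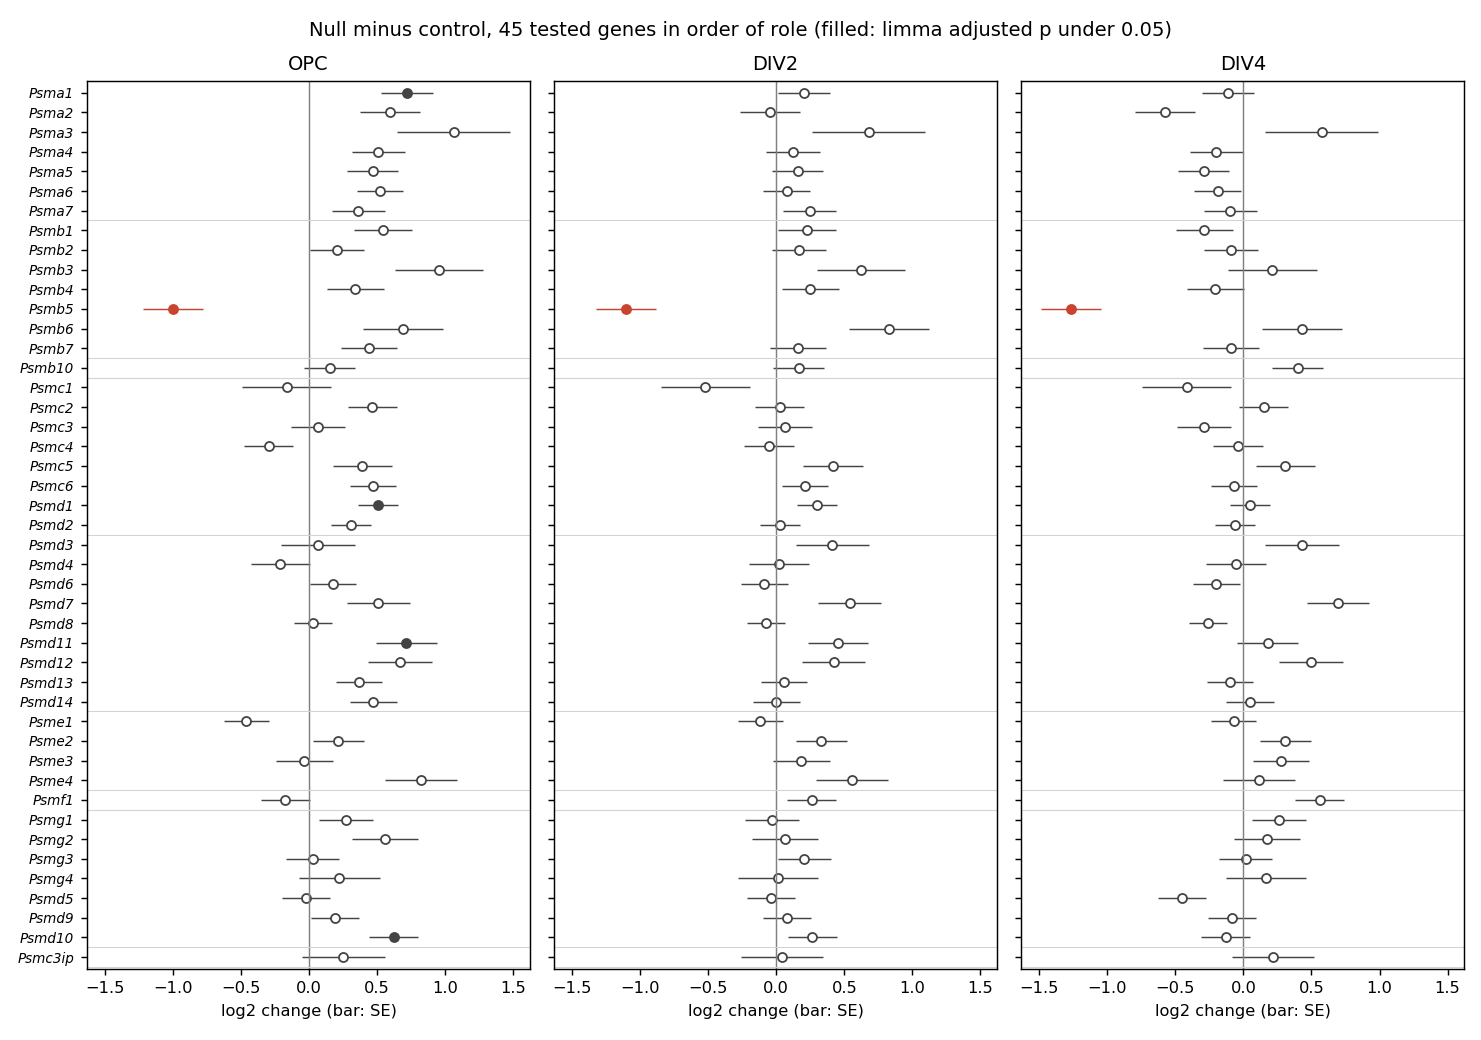
Null minus control log2 change (horizontal axis, bars are SE) of the 45 tested members at the 3 stages, ordered by role from the alpha ring at the top to the assembly chaperones and Psmc3ip at the bottom. Filled points passed a limma adjusted p of 0.05: Psmb5 (red) at each stage, and Psma1, Psmd1, Psmd11 and Psmd10 in OPCs.

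Among the 17 members of the 19S cap, Psmd1 and Psmd11 in OPCs were the only ones called between genotypes. The 8 base genes averaged 29.8 (Psmc2, an ATPase) to 66.9 (Psmd2, a ubiquitin-receptor scaffold) rescaled TPM over all libraries, and the 9 lid and hinge genes 13.3 (Psmd11) to 59.6 (Psmd8). Their 17 changes had medians of 0.36 in OPCs, 0.06 at DIV2 and -0.04 at DIV4. Psmd14, the deubiquitinase of the lid, changed by 0.47, 0.00 and 0.05, and Psmd4, a ubiquitin receptor, by -0.21, 0.02 and -0.06; neither was called. Psmd12, a lid subunit, read higher in null clones at every stage (0.67, 0.42 and 0.50) without a call. Without control D7, whose Psmd12 stood above the other controls, its changes were 0.90 at OPC, 0.61 at DIV2 and 0.75 at DIV4. D7 was picked after its values were seen, so these changes are no separate result.

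Immunoproteasome genes were at or near 0, apart from Psmb10. Psmb8 was listed at 0 in 16 of 18 libraries and reached at most 0.0737 rescaled TPM, and Psmb9 reached at most 0.413, in the E8 control OPC library. Psmb10 was 4.81, 6.67 and 3.91 in control and 5.68, 4.62 and 6.99 in null OPCs. At DIV2 it was 5.796, 4.41 and 4.31 against 5.13, 5.58 and 5.84, and at DIV4 5.69, 3.502 and 5.49 against 7.09, 6.31 and 6.58. The DIV4 groups lay apart, null higher, as they did for 14.8% of all genes, and limma did not call the difference, 0.40 (SE 0.19, adjusted p = 0.226). Psmb10, whose product replaces that of Psmb7 in the immunoproteasome, thus stayed far below Psmb7 (56.6 to 144 rescaled TPM) in each library. The tissue-restricted core genes Psma8 (testis) and Psmb11 (thymus) were listed at 0 in every library and at most 0.286, respectively. Of 14 interferon and MHC class I genes, which are induced together with the immunoproteasome in immune settings, 7 were tested. None of the 7 was called in OPCs or at DIV2, and 1 was lower at DIV4: B2m, the light chain of MHC class I, at 12.3, 20.9 and 30.1 in control and 5.404, 9.698 and 8.203 in null clones (-1.28 (SE 0.35, adjusted p = 0.0452) by limma). The call of B2m was kept only without D7 among the 6 left-out clones (limma adjusted p up to 0.210 otherwise).

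Among the activators, Psme4 (PA200, a nuclear activator) read higher in null OPCs without a call, at 10.5, 8.88 and 8.12 in control and 19.8, 14.7 and 16.5 in null clones (0.82 (SE 0.26, adjusted p = 0.0549) by limma). Psme1, an 11S activator subunit, read lower in null OPCs, also without a call, at 20.1, 27.2 and 19.8 against 13.8, 18.4 and 15.5 (-0.46 (SE 0.16, adjusted p = 0.0791) by limma). Both pairs of groups lay apart in OPCs. Psmf1, which encodes the inhibitor PI31, was 6.94, 5.01 and 4.78 in control and 7.95, 10.3 and 7.701 in null clones at DIV4. That difference of 0.56 (SE 0.18, adjusted p = 0.0815) was not called by limma, although the groups did not overlap. Without control D7, the control nearest to the null clones, the difference was 0.70, which is no separate result. The 7 assembly chaperones held mean levels of 6.48 (Psmd9) to 18.3 (Psmg4), and Psmd10 in OPCs was the 1 of them called between genotypes.

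In control clones members were called lower with differentiation less often than all genes, at 4 of 45 by DIV2 (all genes: 18.7%) and 5 of 45 by DIV4 (17.7%). The members called lower in both genotypes, 4 by DIV2 and 5 by DIV4, lay outside the core. The share of all genes called lower in both genotypes was not counted, so that count is no result about the members. In control clones 4 members fell from OPC to DIV2 and none rose (all genes: 18.7% lower, 21.3% higher, 40.0% in all). They were Psmg1 (-0.95), Psmg4 (-0.95), Psme1 (-0.93) and Psmc3ip (-0.88). From OPC to DIV4, 5 fell (all genes: 17.7%), the same 4 and Psme2 (-0.68), and Psmd10 rose by 0.51 (all genes: 19.2%, and 36.9% in either direction). In null clones 5 fell by DIV2 (all genes: 15.6%, and 33.3% in either direction): Psmg1 (-1.25), Psmg4 (-1.15), Psmc3ip (-1.09), Psmg2 (-0.66) and Psme1 (-0.59). Psmf1 rose in null clones by 0.54 at DIV2 (all genes: 17.7%) and 0.74 at DIV4. The balance in control clones turned with scaling: 31 members were called higher and 0 lower at DIV2 with protein-coding totals, and 18 higher and 1 lower at DIV4. On deposited TPM 44 were called higher and 0 lower at both stages. The DIV2 and DIV4 changes share their OPC libraries. With the clone as a block, Psmd2 (0.38), Psme4 (0.44) and Psmc1 (0.33) were also called higher and Psmg3 (-0.48) lower at DIV2 in control clones (8 members; all genes: 45.1%), and the rise of Psmd10 was no longer called.

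Psmg1 (PAC1, a chaperone of the alpha ring) went from 18.02, 13.03 and 11.3 rescaled TPM in control OPCs to 6.69, 6.54 and 6.798 at DIV2 and 4.295, 8.07 and 7.68 at DIV4. In null clones it went from 15.7, 17.7 and 17.4 to 5.09, 7.57 and 7.17 and 7.73, 8.33 and 7.87. In all 6 clones the DIV2 level already lay below the OPC level of every library. Psmg4 (PAC4, another core chaperone) went from 25.2, 39.01 and 15.8 to 11.05, 14.8 and 11.9 in control and from 26.97, 30.2 and 31.01 to 9.31, 19.4 and 11.03 in null clones. Psme1 went from 20.1, 27.2 and 19.8 to 13.7, 10.9 and 9.28 in control and from 13.8, 18.4 and 15.5 to 9.297, 10.4 and 10.9 in null clones. Psmc3ip (HOP2, which acts in meiotic recombination) was low throughout, at 3.66, 0.498 and 3.04 in control and 2.39, 2.47 and 3.05 in null OPCs, and at or under 0.984 in every DIV2 and DIV4 library. The D3 control OPC library, with the 0.498, already had the level of differentiated cells, and that library also had the low cell cycle sum. The 6 cell cycle genes fell in the same comparisons, 6 of 6 called lower in each but control DIV4, where 5 of 6 were.

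By DIV4 the core itself had fallen in null clones. From OPC to DIV4, 25 of 45 members were called lower in null clones and 1 higher (all genes: 18.7% lower, 19.7% higher, 38.4% in all), with a median change of -0.54 over the members and 0.01 over all genes. The number called lower was 16 without null clone 3F, 12 without D6 and 11 without 7F, and the share of all genes in those fits is not given here. The 25 included 12 of the 13 other constitutive core genes, all but Psmb6, and 8 of 17 in the 19S cap. Largest were Psma1 (-1.20), Psmc3ip (-1.16), Psma3 (-1.11) and Psma2 (-1.09). In control clones none of the 13 core genes was called by DIV4, with a median of -0.22. Clone by clone, the mean log2 of the 13 genes changed from OPC to DIV4 by -0.14 in D7, -0.68 in D3 and 0.16 in E8, and by -0.64 in 3F, -1.02 in D6 and -0.92 in 7F. Control D3 thus fell as far as null 3F, and control E8 started from the low OPC level given above. At DIV4 the null clones lay close together at 61.6, 58.5 and 61.0 rescaled TPM (geometric mean of the 13), within the control range of 49.1 to 76.7.

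The genotype difference in that change was not called by limma for any of the 45 members (all genes: 2.91% called), nor was it at DIV2 (all genes: 0.279%). At an unadjusted limma p under 0.05 stood 10 of the 45 members by DIV4, beside 2095 of 10409 genes. By DIV2 the counts were 0 of 45 and 1436 of 10409. The nearest to a call by DIV4 was Psma2, at -1.17 (SE 0.31, limma adjusted p = 0.0546). With the clone as a block, Psma2 was the 1 member called (limma adjusted p = 0.0341, all genes: 5.57%). Without control D3 there were 5 (Psma1, Psma2, Psma6, Psmb1 and Psmd10), and without any other 1 clone there were 0. The share of all genes called in these fits is not given here. Scaling bears on the direction in control clones: their 13-gene median by DIV4 was 0.50 with protein-coding totals and 2.47 on deposited TPM, where all genes moved by 0.60 and 2.03. In null clones the same median stayed negative, at -0.46 and -0.40, where all genes moved by 0.37 and 0.42. The counts of called members by DIV4 in null clones were then 5 lower and 2 higher (background 45.5%), and 1 lower and 1 higher (background 27.5%). On deposited TPM nearly all tested genes were called in the comparisons that hold the control OPC libraries: 90.4% and 94.8% from OPC to DIV2 and DIV4 in control clones, and 82.0% and 80.6% for the interactions, against 23.1% from OPC to DIV2 in null clones. With protein-coding totals the control shares were 56.7% and 57.2%, that of the DIV4 interaction 2.9%, and that of null against control at DIV4 5.37%.

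**Figure D4:**
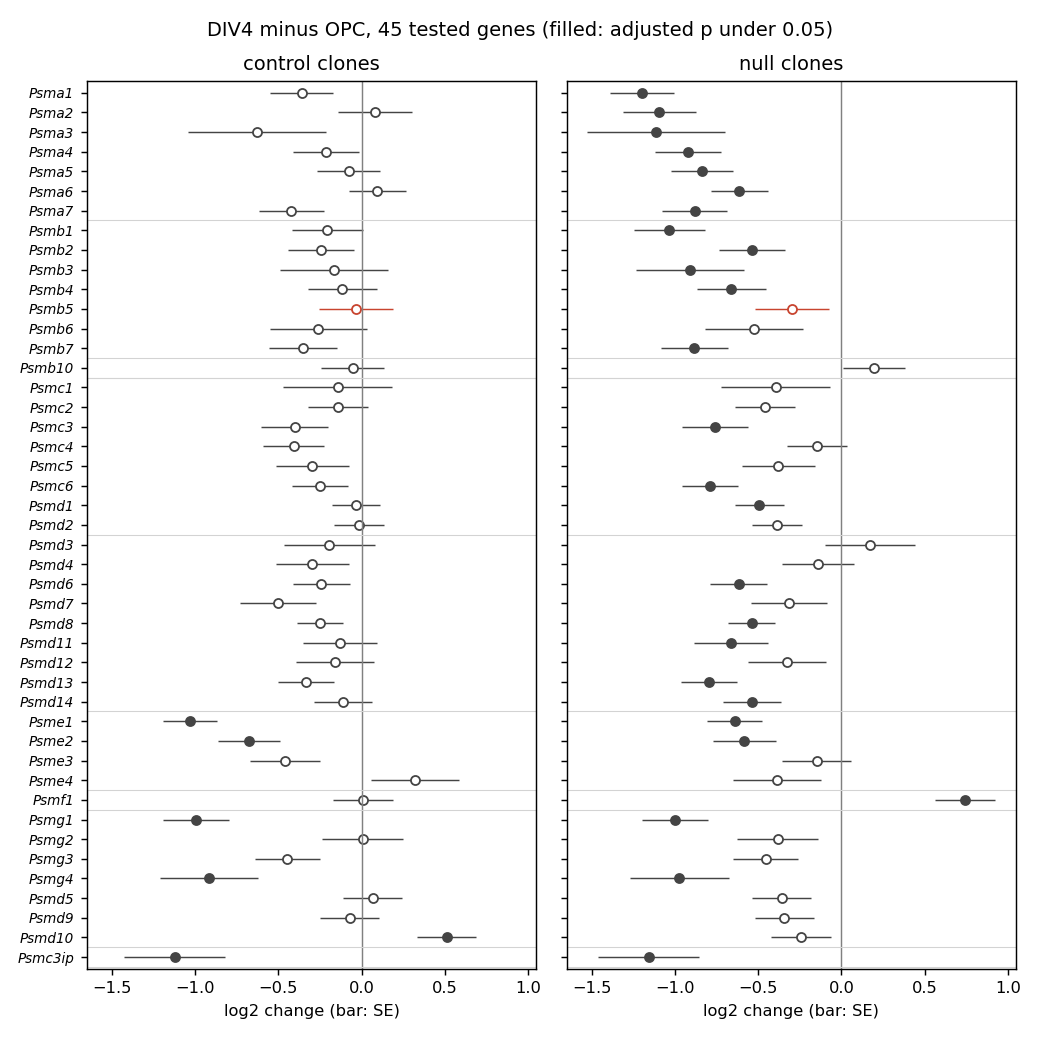
DIV4 minus OPC log2 change (horizontal axis, bars are SE) of the 45 tested members in control clones (left) and null clones (right), in order of role. Filled points passed a limma adjusted p of 0.05: 6 members in control clones and 26 in null clones, with Psmb5 (red) open in both.

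Some members stood at different levels in the 3 null clones. Psma3, an alpha-ring gene, was 89.6, 43.00 and 81.3 rescaled TPM in 3F, D6 and 7F as OPCs, 81.2, 46.8 and 75.8 at DIV2 and 46.8, 17.9 and 34.8 at DIV4. Clones 3F and 7F were thus higher than D6 at each stage. The control values of Psma3 were 45.5, 32.3 and 22.3 in OPCs, 34.2, 39.1 and 51.1 at DIV2 and 10.8, 24.3 and 31.8 at DIV4. Psma3 shares 27.3% of its 31-base words with other genes, mostly Gm13835, which itself held 0.285 to 69.8 deposited TPM, so its level is uncertain. The noncoding transcripts of Psma3, left out of these sums, held more than the coding ones by group means in both genotypes at each stage. At DIV4 the means were 57.1 noncoding against 22.3 coding in control, and 67.8 against 33.2 in null clones. Psmd7, a lid subunit that shares none, was 26.2, 24.6 and 30.1 in 3F, D6 and 7F as OPCs, 28.1, 19.9 and 28.3 at DIV2 and 28.6, 14.1 and 24.2 at DIV4. Controls held 17.5, 14.5 and 25.3, 16.3, 17.1 and 17.6 and 13.6, 12.2 and 12.7 at the 3 stages. At DIV2 and DIV4, 3F and 7F stood well above the controls and D6 close to them. Over all stages neither gene was called (Psmd7 0.58 (SE 0.16, adjusted p = 0.0964) by limma). Without D6 the changes were 0.75 for Psmd7 and 1.09 for Psma3. D6 was picked after its values were seen, so these changes are no separate result.

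Psmc1, an ATPase of the 19S base, showed another order. It was 25.1, 57.6 and 35.6 in 3F, D6 and 7F as OPCs, 23.2, 61.1 and 34.7 at DIV2 and 19.9, 37.8 and 29.5 at DIV4. Control clones D7, D3 and E8 held 49.2, 37.4 and 40.1 in OPCs, 54.3, 45.4 and 60.8 at DIV2 and 43.4, 31.4 and 39.7 at DIV4. Clones 3F and 7F thus lay below every control at each stage, with 3F the lowest of all 6 clones. D6 lay above every control in OPCs, slightly above them at DIV2 and within their range at DIV4. Psmc1 was not called between genotypes at any stage. Of the words of Psmc1, 39.7% are shared with other genes, and Gm9575 held at most 0.216 deposited TPM.

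**Figure D5:**
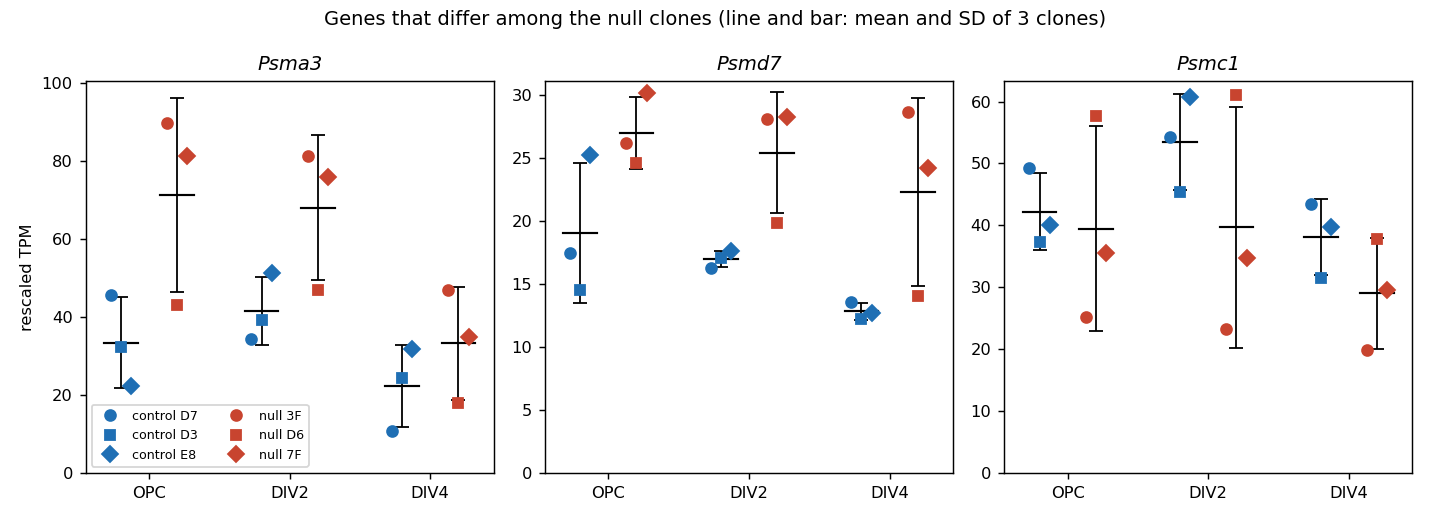
Rescaled TPM (vertical axis) of Psma3, Psmd7 and Psmc1 in the 18 libraries by stage (horizontal axis), control clones in blue and null clones in red; lines and bars give mean and SD of 3 clones. Null clones 3F (circle) and 7F (diamond) lie above D6 (square) for Psma3 and Psmd7 at every stage, and below it for Psmc1.

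Of 25 further genes of proteasome structure, assembly, control and ubiquitin supply, all 25 were tested. In OPCs 4 were higher in null clones (Shfm1, Usp14, Txnl1 and Rps27a) and 2 lower, 1 of them Uba1. Shfm1, a small lid subunit, was 41.5, 40.96 and 30.7 in control and 50.9, 72.5 and 72.2 in null OPCs (0.77 (SE 0.19, adjusted p = 0.0187) by limma). Usp14, a deubiquitinase of the 19S cap, was 12.5, 10.1 and 15.01 against 18.1, 22.2 and 20.3 (0.65 (SE 0.16, adjusted p = 0.0183) by limma). Uba1, the main ubiquitin-activating enzyme, was lower at OPC and DIV2 (-0.49 and -0.48), the 1 gene of the list called at DIV2. The calls of these 5 genes in OPCs rested on single clones: each was lost without 7F, Shfm1 also without E8 or D6, Usp14 without D3 or D6, Uba1 without E8, Rps27a without E8, 3F or D6, and Txnl1 without D3, E8, 3F or D6 (limma adjusted p up to 0.232). At DIV2 that of Uba1 was lost without D3, E8, 3F or 7F (limma adjusted p up to 0.283). The median change of the list was 0.25 in OPCs, 0.07 at DIV2 and 0.12 at DIV4.

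At DIV4, 2 genes of the list were higher in null clones and none lower. Nfe2l1, which encodes the transcription factor that raises proteasome genes when proteasome activity falls, was 11.1, 20.2 and 15.6 in D7, D3 and E8 and 30.5, 29.2 and 30.9 in 3F, D6 and 7F. The null clones lay close together and apart from all controls (0.95 (SE 0.18, adjusted p = 0.00670) by limma). In OPCs Nfe2l1 was 12.5, 9.24 and 13.7 in control and 12.2, 14.4 and 12.3 in null clones, and at DIV2 13.6, 11.9 and 12.8 and 16.2, 15.1 and 16.4. It was the 1 gene of the list called over all stages (0.46 (SE 0.09, adjusted p = 0.0434) by limma). Rad23b, a ubiquitin shuttle factor, was 22.8, 24.8 and 26.4 against 34.2, 34.7 and 36.4 at DIV4 (0.49 (SE 0.13, adjusted p = 0.0378) by limma). Shfm1 was the 1 gene of the list whose change from OPC to DIV4 differed between genotypes (-1.28 (SE 0.27, adjusted p = 0.0278) by limma). Without 3F or 7F the DIV4 call of Nfe2l1 was lost (limma adjusted p up to 0.0926), and over all stages it was kept only without D7 (limma adjusted p up to 0.218 otherwise). That of Rad23b was lost without any 1 clone (up to 0.271 by limma), and that of Shfm1 without E8, 3F, D6 or 7F (up to 0.279 by limma).

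The genes whose pattern was most like that of Psmb5 were compared by Pearson's r of log2(rescaled TPM + 1) over the 18 libraries, which share clones and stages, among 6286 genes with a mean of at least 5. The 5 highest were Ndufs5 (r = 0.936, a subunit of respiratory complex I), Ech1 (0.935, an enzyme of fatty acid oxidation), Ing4 (0.929, a reader of histone methylation), Tmem223 (0.926) and Cyb5r4 (0.920). These genes were chosen for likeness to Psmb5, which was itself lower in null clones, so their genotype calls are no separate result. All 5 were called lower in null clones at each of the 3 stages, by -0.92, -0.97 and -1.13 for Ndufs5 at OPC, DIV2 and DIV4 and by -3.45, -4.78 and -4.74 for Ech1. The member most like Psmb5 was Psmc1, at r = 0.442 and rank 656, and Psmb6 and Psmb7 stood at -0.44 and 0.06. In the pattern over libraries, which includes the genotype difference given above, Psmb5 therefore lay far from its partners in the core.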

How the data were processed

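RNA abundance was deposited as TPM by the authors, a length-corrected abundance, for each of 93666 Ensembl transcripts in each library, scaled to 1000000 over all transcripts of a library, small noncoding RNAs included. Per the labels' protocols, total RNA was taken through a stranded kit with removal of ribosomal RNA. The submitters' processing notes name STAR, Picard and mm10, and the quantifier and annotation are not given in the sources used here. TPM keeps no sequencing depth, so depth is unknown, no counting interval is given, and precision rests on 3 clones per group.

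From the deposited TPM, the 47103 protein-coding transcripts were summed by gene name and divided by median-of-ratios factors (0.126 to 0.322 in control OPC libraries, 0.722 to 2.03 elsewhere). Genes with a mean of at least 1 (10409) entered a linear model (limma 3.58.1, R 4.3.3) of log2(rescaled TPM + 1), with a mean trend and 1 mean per genotype and stage over all 18 libraries, so that groups share 1 estimate of the spread. P-values were adjusted by Benjamini-Hochberg over all tested genes and called under 0.05. Comparisons over all stages used 6 clone means. The relative level of Psmb5 was tested with two-sided exact permutation tests. The limma step was tested on simulated data. Because the log scale has 1 added, fold changes of low genes are understated. Shared sequence was counted as 31-base words of GENCODE M21 transcripts, which held 96.5% of the table's transcripts.

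Members and lists were chosen with earlier results of these data known. Values in every library are given for the catalytic and immunoproteasome genes and for members called between genotypes. Members called between stages are named up to the 4 largest per direction, and others named with values were chosen after their values were seen. The same clone was sampled at each stage, so libraries pair by clone: deviations of libraries of 1 clone correlated with a mean r of 0.28 (0.03 to 0.65) and those of different clones with -0.14. Alternatives covered scaling, filter, pseudocount, biotypes, libraries fitted, the clone as a block and each clone left out. Those without OPC libraries, and deposited TPM fitted on the compared libraries alone, were added after seeing the data. Some results on genes outside the members are not reported here.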

Additional observations from a re-analysis of the deposited data

How the results depend on the processing

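Of 139 recomputed counts of called members, 91 stayed within 1.5 times. Of 57 recomputed changes of Psmb5, 43 kept their side of the threshold and 1 reversed. The relative level of Psmb5 moved by less than 1 SD in 34 of 37 settings, and its exact p cannot fall below 0.1, so it carries no call. Psmb5 in OPCs turned to 1.03 on deposited TPM, and weakened to -0.60 with protein-coding totals (limma adjusted p = 0.135) and to an uncalled -1.003 with only the OPC libraries fitted (limma adjusted p = 0.174). On deposited TPM, Psmb5 was -1.29 at DIV2, -1.43 at DIV4 (the same value with only those libraries fitted) and -0.56 over all stages, none called (limma adjusted p = 0.194, 0.0997, 0.0992 and 0.062). With only the DIV2 libraries fitted on deposited TPM it was called (limma adjusted p = 0.000695). Against the 19S base instead of the core, Psmb5 was -1.25, -1.19 and -1.23 at OPC, DIV2 and over all stages.

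Leaving out each clone in turn gave Psmb5 changes of -1.35 to -0.80 in OPCs, -1.17 to -1.03 at DIV2, -1.36 to -1.18 at DIV4 and -1.23 to -1.04 over all stages. The call was lost without null 3F in OPCs and at DIV2, without null D6 in OPCs, and without null 7F in all 4 comparisons (limma adjusted p up to 0.136). The relative measure stayed between -1.81 and -1.14. Called members ranged over left-out clones from 0 to 16 in OPCs, 0 to 4 at DIV2, 0 to 6 at DIV4 and 0 to 6 over all stages. From OPC they ranged from 2 to 5 (control DIV2), 3 to 6 (control DIV4), 1 to 7 (null DIV2) and 12 to 30 (null DIV4). For the interactions they were 0 at DIV2 and 0 to 5 at DIV4. The share of all genes called with a clone left out is not given here, so these ranges have no background beside them. With 2 clones left in a group, the spread is taken from all groups.

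Counts of called members on deposited TPM were 45, 0 and 0 between genotypes at OPC, DIV2 and DIV4, 35 over all stages, 44 and 44 (control DIV2 and DIV4, each higher, where the main calls were mostly lower), 3 and 2 (null, 2 and 1 of them higher), and 45 and 44 (each lower) for the interactions. With protein-coding totals they were 28 in OPCs, 2 at DIV4, 31 and 19 (control, 31 and 18 of them higher), 7 (null DIV4) and 2 for the DIV4 interaction. With no filter, 3 were called in OPCs and 2 by control DIV2. With only the compared libraries fitted, 0 were called in OPCs, 2 by control DIV2 and 0 by control DIV4. A mean filter of 5 gave 1 at the DIV4 interaction. With the clone as a replicate block, 8 were called by control DIV2 and 1 at the DIV4 interaction, and Psmb5 was called at each stage (limma adjusted p = 0.0115, 0.0129 and 0.00517).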
